A study of Mus musculus with 4 samples.

Results

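The genes described here encode the subunits, activators, inhibitor and assembly factors of the mouse proteasome. They were chosen by name from the GENCODE M1 annotation of mm9, as protein-coding genes whose symbol starts with Psma, Psmb, Psmc, Psmd, Psme, Psmf or Psmg followed by a digit, which gave 50 of 22241 protein-coding genes. By the role of the protein, 19 belonged to the core particle, 22 to the regulatory particle and the other activators and inhibitor, and 7 to the assembly factors. The other 2, Psmc3ip and Psme2b-ps, matched by symbol only: Psmc3ip encodes a protein of meiotic recombination, and Psme2b-ps is named as a copy of Psme2.

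The study mapped Myc and Max on chromatin of E14 mouse embryonic stem cells (ESCs) by ChIP-Seq, in which DNA bound to a protein is pulled down and sequenced. Bio-Myc was Myc with a biotin tag, made from an EF1α promoter construct in 1 stable clone of ESCs that express the biotin ligase BirA, and it was pulled down with streptavidin beads. Max was pulled down with an anti-Max antibody from parental wild type ESCs. The controls that the authors used in calling peaks, a streptavidin mock ChIP for Bio-Myc and an IgG ChIP for Max, were not analysed on their own, and the mock ChIP came from BirA-ES cells without the tagged protein by the methods but from parental wild type cells by the labels. Each list came from 1 library, so the spread between cultures is not known for any value below, no test between conditions was possible and the read depth is unknown. The lists held 3962 Bio-Myc peaks and 11570 Max peaks. A peak's score is 10 times the negative log10 of its p-value from the peak caller MACS, the lowest possible being 80, and scores were ranked within a list only. The lists differ in the way of pull-down, control, cells and length. A gene with a Max peak alone thus cannot be told apart from one whose Bio-Myc signal stayed under the limit of its list.

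The proteasome degrades proteins that carry chains of ubiquitin. Its barrel-shaped core is built of alpha subunits, which form the outer rings and the gate, and of beta subunits, which form the inner rings and hold the protease sites. The regulatory particle binds ubiquitin, unfolds the substrate with a ring of ATPases and feeds it into the core, and dedicated chaperones help to put the rings together. Myc is a transcription factor that binds DNA as a dimer with Max, preferably at the E-Box CACGTG, and Max also dimerizes with other partners.

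The E-Boxes at these promoters are shown first, because the named sites differ in how they lie to the peaks. The sequences were read from the mm9 genome on the strand of the gene, 5′ to 3′, and capitals mark the E-Box. The first 6 E-Boxes lay under both a Bio-Myc and a Max peak, and are given in falling order of the Bio-Myc score.
Psme3 (chr11:101177456-101177515, + strand, upstream of the gene): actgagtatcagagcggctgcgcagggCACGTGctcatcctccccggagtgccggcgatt
Psmg3 (chr5:140302392-140302451, - strand, intron): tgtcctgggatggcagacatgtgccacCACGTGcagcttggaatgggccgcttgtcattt
Psmc2 (chr5:21291195-21291224, + strand, noncoding part of an exon): tgtttgttttttCACGTGagagcaagacgg
Psma7 (chr2:179776364-179776393, - strand, noncoding part of an exon): tcttccggaacaCACGTGgttccgagtctt
Psma4 (chr9:54798514-54798543, + strand, coding exon of the divergent neighbour AY074887): ttctgcacagtcCACGTGggcagactgagc
Psmg4 (chr13:34255387-34255446, + strand, intron): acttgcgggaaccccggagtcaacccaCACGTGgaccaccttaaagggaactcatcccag

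Of these sites, the one at Psme3 lay 42 bp upstream of the outermost transcription start site (TSS) and 12 bp off the middle of its Bio-Myc peak. The sites at Psma7, Psmc2 and Psmg4 lay far from the centre, at 592 bp, 414 bp and 402 bp. For contrast, 3 E-Boxes within 250 bp upstream of a TSS without a Bio-Myc peak are given, chosen after the values were seen. Those of Psmb3 and Psmd9 were under a Max peak, 229 bp and 49 bp upstream of the TSS. That of Psmb2, 212 bp upstream, was under no peak of either list.
Psmb3 (chr11:97564455-97564514, + strand, upstream of the gene): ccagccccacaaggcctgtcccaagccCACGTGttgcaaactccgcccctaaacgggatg
Psmd9 (chr5:123678121-123678180, + strand, upstream of the gene): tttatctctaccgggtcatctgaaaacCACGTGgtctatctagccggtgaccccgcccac
Psmb2 (chr4:126354633-126354692, + strand, upstream of the gene): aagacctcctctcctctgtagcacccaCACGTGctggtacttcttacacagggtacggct

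Peaks were assigned to a gene when they overlapped, by at least 1 bp, a window of 1 kb to either side of one of its annotated TSSs, and the strongest peak was used. A Bio-Myc peak was present at 17 of the 50 proteasome genes, or 34% (95% Wilson interval 22.4% to 47.8%), against 14.7% of all protein-coding genes. A Max peak was present at 26, or 52% (38.5% to 65.2%), against 34.9% of all protein-coding genes. With the Max list held to its 3962 highest scores, the length of the Bio-Myc list, 11 members or 22% (12.8% to 35.2%) had a Max peak against 15.5% of other genes, whose value the interval then includes. At scores of at least 150, 4 members or 8% (3.15% to 18.8%) had a Bio-Myc peak against 6.87%, again inside the interval. Both peaks were present at 13 genes, or 26% (15.9% to 39.6%), where the share of all protein-coding genes was 12.7%. The intervals cover counting error only and treat genes as independent draws, which they are not. A Bio-Myc peak without a Max peak was found at 4 members, Psmb1, Psmb4, Psmc1 and Psmd8, or 8% (3.15% to 18.8%), against 1.99% of all protein-coding genes. A Max peak alone was found at 13 members, or 26% (15.9% to 39.6%), against 22.2%. The remaining 20 members, or 40% (27.6% to 53.8%), had neither, against 63.2% of the other protein-coding genes.

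**Figure D1:**
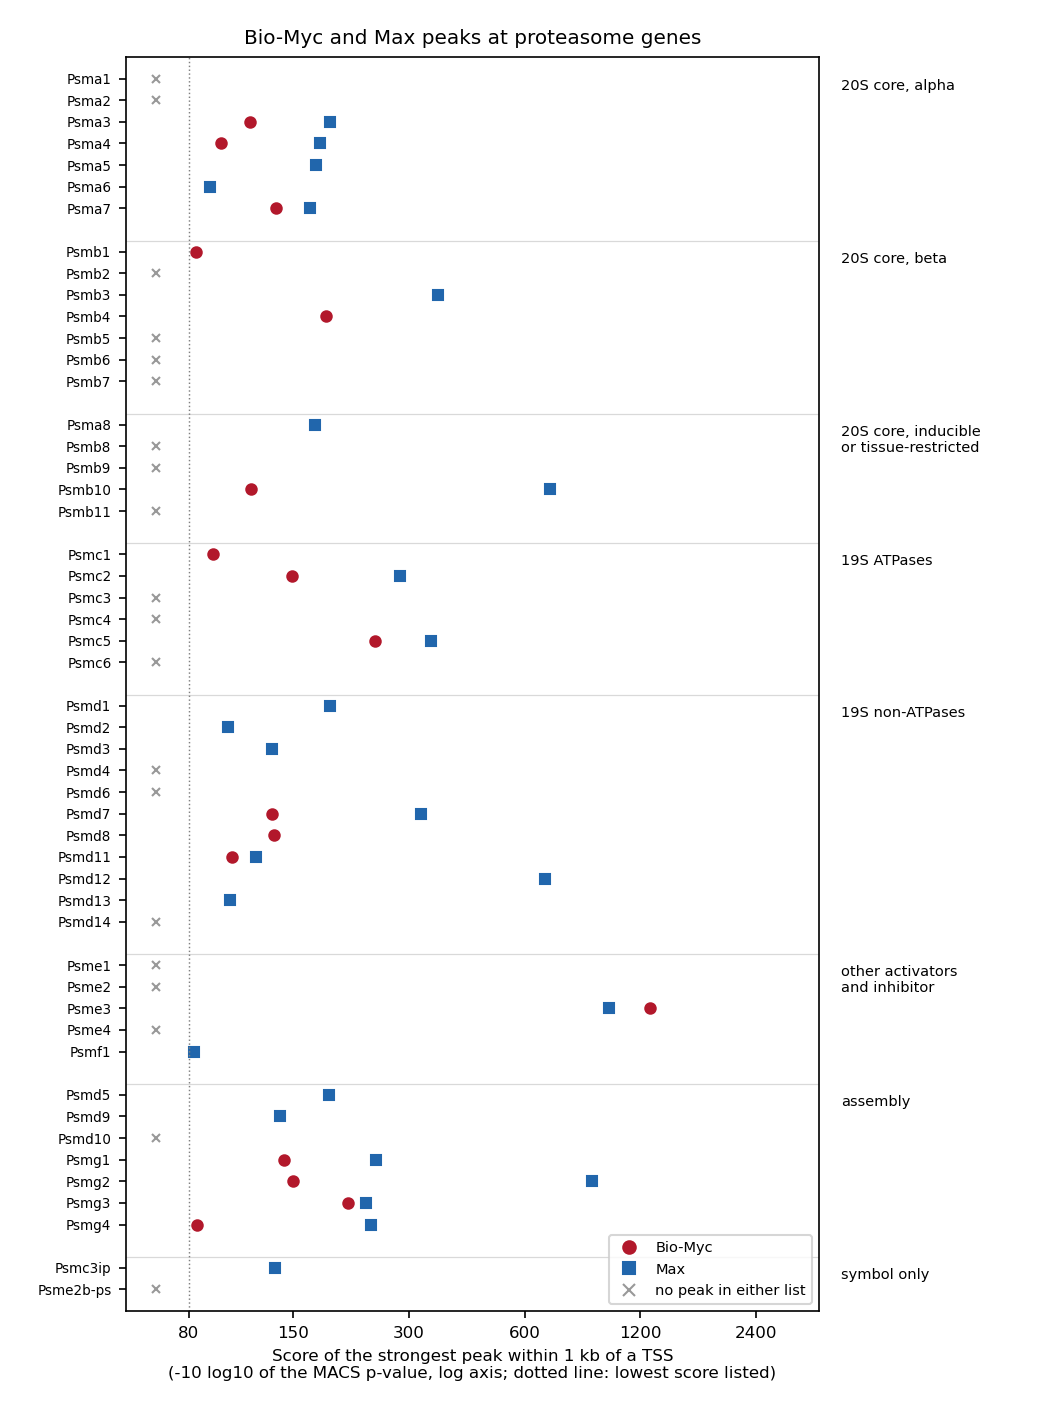
Score of the strongest Bio-Myc peak (circles) and Max peak (squares) within 1 kb of a TSS of each of the 50 proteasome genes, by role, on a log axis; crosses at the left mark the 20 genes without a peak in either list. Psme3 has the highest score of these genes in both lists, 1273 and 995, while most Bio-Myc scores lie between 80 and 150.

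Within the core particle, a Bio-Myc peak lay at 3 of 7 alpha and 2 of 7 constitutive beta subunit genes, or 42.9% (15.8% to 75.0%) and 28.6% (8.22% to 64.1%), against 14.7% of all protein-coding genes. Bio-Myc and Max peaks were found together at 3 of 7 alpha subunit genes (Psma3, Psma4 and Psma7) and at none of the 7 beta subunit genes, where the interval for a count of 0 of 7 reaches 35.4%, against 12.7% of all genes. A Max peak lay at 5 of 7 alpha and 1 of 7 beta subunit genes, or 71.4% (35.9% to 91.8%) and 14.3% (2.57% to 51.3%), against 34.9%. The intervals of alpha and beta subunits overlap in each of these counts.

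Of the alpha subunits, Psma7 had a Bio-Myc peak at chr2:179776134-179777807 scoring 135.02 and a Max peak scoring 165.88. Psma3 had a Bio-Myc peak at chr12:72075270-72076301 scoring 115.95 and a Max peak scoring 186.44. Psma4 had a Bio-Myc peak at chr9:54798188-54799096 scoring 97.23 and a Max peak scoring 176.18. In each of the 3, the Bio-Myc score fell below the median of 143 of the other protein-coding genes with such a peak. The peaks of Psma4 and Psma7 also covered the TSS of a neighbouring gene, AY074887 and Ss18l1, at 64 bp and 76 bp from their own TSS. Psma5 had a Max peak alone, scoring 172.20, and its nearest Bio-Myc peak was 45.7 kb upstream. Psma6 had a Max peak alone scoring 90.80, which lay 14461 bp downstream of the outermost TSS, at an internal annotated start. Its nearest Bio-Myc peak was 80.5 kb upstream. Psma1 and Psma2 had no peak. Around Psma1, the lists held no Bio-Myc peak nearer than 906 kb and no Max peak nearer than 158 kb. For Psma2 these distances were 16.4 kb and 90.0 kb.

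The genes of the 3 catalytic beta subunits, Psmb5, Psmb6 and Psmb7, had no peak in either list. Neither peak was found at 40% of all members and 63.2% of the other protein-coding genes. The absence at 3 genes cannot be told apart from these shares. Psmb5 carries the chymotrypsin-like site, and the nearest peaks lay 14.1 kb (Bio-Myc) and 40.0 kb (Max) downstream. For Psmb6, which carries the caspase-like site, a Max peak lay 4.82 kb upstream and the nearest Bio-Myc peak 72.8 kb upstream. Psmb7 carries the trypsin-like site, and its nearest peaks lay 14.0 kb (Bio-Myc) and 27.8 kb (Max) upstream. Of the beta subunits without a protease site, Psmb4 had a Bio-Myc peak at chr3:94690503-94691315 scoring 182.33, the highest of the core genes, with no Max peak nearer than 66.8 kb. Psmb1 had a Bio-Myc peak at chr17:15634766-15635777 scoring 83.44, close to the lowest score listed, with no Max peak nearer than 28.6 kb. Both Bio-Myc peaks covered the TSS. Psmb3 showed the reverse, a Max peak scoring 357.25 and the nearest Bio-Myc peak 32.1 kb downstream. Psmb2 had neither, the closest being 61.7 kb (Bio-Myc) and 67.4 kb (Max) away.

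Of the 5 inducible and tissue-restricted core genes, 1 or 20% (3.62% to 62.4%) had a Bio-Myc peak and 2 or 40% (11.8% to 76.9%) a Max peak, near the 14.7% and 34.9% of all genes. Psmb10, a beta subunit of the immunoproteasome, had a Max peak scoring 699.30 that was 2339 bp wide and covered the TSS. Its Bio-Myc peak, at chr8:108460596-108461611 scoring 116.58, began 681 bp downstream of the TSS and was the only Bio-Myc peak of a member that covered no TSS. Psma8, the alpha subunit of the testis proteasome, had a Max peak alone scoring 171.13, and its nearest Bio-Myc peak was 22.5 kb upstream. The other immunoproteasome genes, Psmb8 and Psmb9, lie close together and had no peak. Their nearest Max peaks were 74.5 kb and 60.3 kb away and their nearest Bio-Myc peaks 74.7 kb and 60.5 kb away. Psmb11, the thymus-restricted subunit, had its nearest Bio-Myc peak 21.4 kb upstream and its nearest Max peak 47.3 kb upstream. On chromosome 8, which holds Psmb10 and Psmd7, a Max peak lay at 60.6% of the other protein-coding genes and a Bio-Myc peak at 16.7%, so the Max peaks of these members stand beside a high share on their chromosome. On chromosome 11, which holds 10 members, 7 of them had a Max peak and 3 a Bio-Myc peak, beside 49.1% and 18.8% of the other genes there. The part of the chromosome in these values was not tested.

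Of the 6 ATPase genes of the regulatory particle, Psmc2 and Psmc5 had both peaks and Psmc1 had a Bio-Myc peak alone. A Bio-Myc peak was thus at 50% (18.8% to 81.2%) of them, against 14.7% of all protein-coding genes. Both peaks were at 33.3% (9.68% to 70.0%), an interval that includes the 12.7% of all genes. Psmc5 had a Bio-Myc peak at chr11:106116575-106117912 scoring 245.21 and a Max peak scoring 341.13. Psmc2 had a Bio-Myc peak at chr5:21290324-21291266 scoring 149.18 and a Max peak scoring 284.83. Both genes share their promoter with a divergent neighbour, Ftsj3 at 75 bp and Dnajc2 at 32 bp, whose TSS lay under the same peaks, so the lists cannot tell apart which gene of the pair a peak belongs to. Psmc1 had a Bio-Myc peak at chr12:101347728-101348663 scoring 92.53 but no Max peak nearer than 58.1 kb. Psmc3, Psmc4 and Psmc6 had no peak. The nearest Max peak to Psmc3 was 10.3 kb upstream, to Psmc4 32.5 kb downstream and to Psmc6 58.6 kb downstream. The nearest Bio-Myc peaks were 136 kb upstream, 32.6 kb downstream and 10.6 kb upstream in the same order.

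Of the 11 non-ATPase subunit genes, 7 or 63.6% (35.4% to 84.8%) had a Max peak, against 34.9% of all genes, and 3 or 27.3% (9.75% to 56.6%) a Bio-Myc peak, with an interval that includes the 14.7% of all genes. Psmd7, an inactive partner of the deubiquitinase Psmd14, had a Bio-Myc peak at chr8:110111571-110112825 scoring 131.78 and a Max peak scoring 321.64. Psmd11, a subunit of the lid, had a Bio-Myc peak at chr11:80241938-80242727 scoring 103.87 and a Max peak scoring 120.17. Psmd8, another lid subunit, had a Bio-Myc peak at chr7:29965261-29966175 scoring 133.82 and its nearest Max peak 11.3 kb downstream. The Max peaks without a Bio-Myc peak covered a wide range of scores. Psmd12 had the highest of them, 678.53, above those of 94.1% of the other protein-coding genes with a Max peak, while its nearest Bio-Myc peak was 9.56 kb upstream. Psmd1 and Psmd2, the large scaffold subunits, had Max scores of 187.33 and 101.20, with Bio-Myc peaks no nearer than 169 kb and 12.9 kb. Psmd3 and Psmd13 had Max scores of 131.96 and 102.31, with the nearest Bio-Myc peaks 82.2 kb downstream and 24.3 kb upstream, and the peak of Psmd13 also covered the TSS of Sirt3. Psmd4, a ubiquitin receptor, Psmd6 and Psmd14 had no peak. Their nearest Max peaks lay 17.0 kb, 104 kb and 38.4 kb downstream, and their nearest Bio-Myc peaks 16.8 kb downstream, 2122 kb upstream and 1514 kb upstream.

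Psme3 stood at the top of the members in both lists. It encodes the nuclear activator that caps the core without using ATP or ubiquitin. Its Bio-Myc peak at chr11:101176848-101178099 had a score of 1272.54, the rank 9 among the 3962 peaks, and higher than that of 99.8% of the other protein-coding genes with a Bio-Myc peak. Its Max peak had a score of 995.42, higher than that of 98.0% of the other protein-coding genes with a Max peak. The next highest Bio-Myc score of a member was that of Psmc5 at 245.21, so no other member came near.

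**Figure D2:**
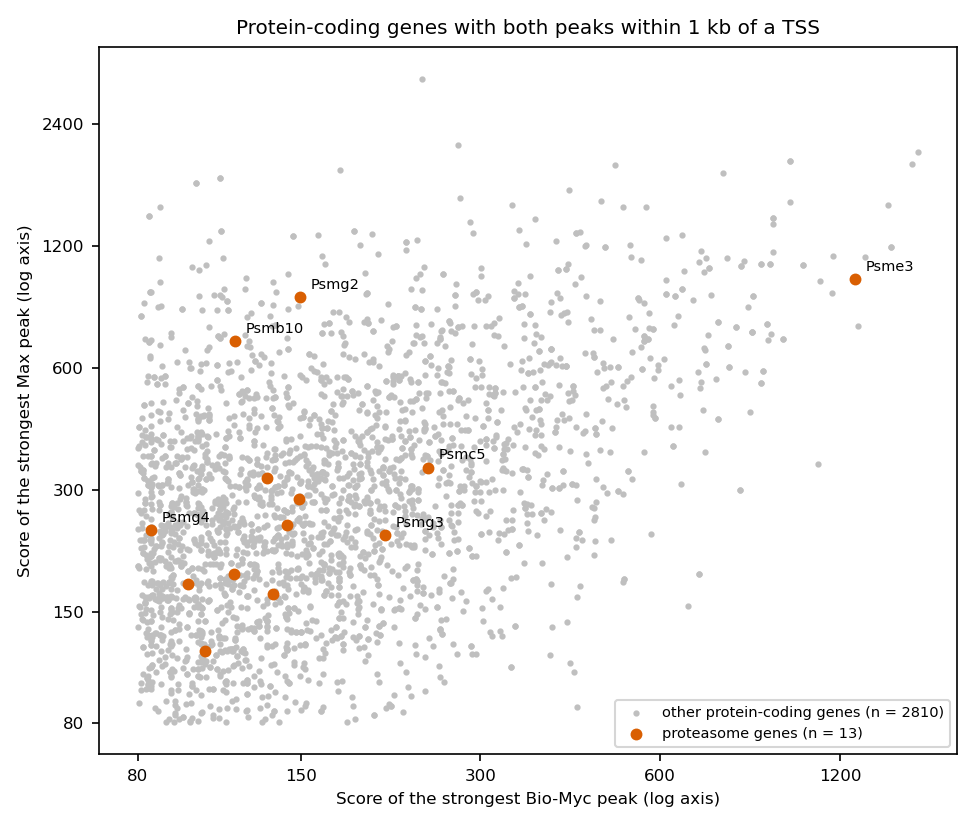
Score of the strongest Bio-Myc peak (x axis) against that of the strongest Max peak (y axis), both log axes, for the 13 proteasome genes with both peaks (orange, 6 of them named) and the 2810 other protein-coding genes with both (grey). Psme3 lies at the right edge of the cloud, whereas Psmg2 and Psmb10 have high Max scores of 899.05 and 699.30 at Bio-Myc scores of 149.55 and 116.58.

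The activators most like Psme3 in name did not share this. Psme1 and Psme2, which form the interferon-induced activator, had no peak, and their nearest Max peaks were 17.1 kb and 12.7 kb upstream and their nearest Bio-Myc peaks 37.3 kb upstream and 47.8 kb downstream. Psme4, a large activator of the core, had its nearest Max peak 88.7 kb downstream and its nearest Bio-Myc peak 503 kb downstream. Psmf1, a proteasome inhibitor, had a Max peak scoring 82.50 at an internal start, 2895 bp downstream of the outermost TSS, and its nearest Bio-Myc peak was 144 kb downstream.

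All 4 Psmg genes, which encode the chaperones that build the alpha ring, had both peaks, against 12.7% of all protein-coding genes. On so few genes, the interval for each protein runs from 51.0% to 100%. Of the 4, only Psmg3 had a Bio-Myc score of at least 150. Psmg3 had a Bio-Myc peak at chr5:140302156-140303021 scoring 207.46 and a Max peak scoring 232.08. Its partner in the dimer, Psmg4, had a Bio-Myc peak at chr13:34254489-34255540 scoring 84.28, among the lowest of the members, and a Max peak scoring 238.87. The partners thus had nearly the same Max score and unlike Bio-Myc scores. Psmg1 had a Bio-Myc peak at chr16:96212074-96212887 scoring 142.14 and a Max peak scoring 246.78. Psmg2, its partner, had a Bio-Myc peak at chr18:67800744-67801760 scoring 149.55 and a Max peak scoring 899.05, above those of 97.3% of the other genes with a Max peak. Both peaks of Psmg2 also covered the TSS of Cep76, at 263 bp. Of the chaperones of the regulatory particle, Psmd5 and Psmd9 had Max peaks alone, with scores of 186.09 and 138.39 and the nearest Bio-Myc peaks 30.6 kb and 116 kb downstream. Psmd10, on the X chromosome, had its nearest Max peak 2426 kb and its nearest Bio-Myc peak 3918 kb away. Of the genes matched by symbol only, Psmc3ip had a Max peak scoring 134.42 and its nearest Bio-Myc peak 154 kb downstream. Psme2b-ps had none, with the nearest Max and Bio-Myc peaks 74.5 kb and 145 kb downstream.

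By role, the assembly factors had the highest shares, on few genes. Of the 7, 4 or 57.1% (25.0% to 84.2%) had a Bio-Myc peak and 6 or 85.7% (48.7% to 97.4%) a Max peak. Of the 19 core genes, 6 or 31.6% (15.4% to 54.0%) had a Bio-Myc peak and 8 or 42.1% (23.1% to 63.7%) a Max peak. Of the 22 regulatory genes, 7 or 31.8% (16.4% to 52.7%) had a Bio-Myc peak and 11 or 50% (30.7% to 69.3%) a Max peak. The intervals of the 3 groups overlap for both proteins, so no order among them can be read from the counts. For Max, the interval of the assembly factors lay above the 34.9% of the other protein-coding genes and those of the core and regulatory genes included it. For Bio-Myc, all 3 lay above the 14.6% of the other genes, by a small margin in the core and regulatory genes that other settings removed. With a peak that covers a TSS itself, 5 core genes or 26.3% (11.8% to 48.8%) had one against 13.0%, and at scores of at least 110, 5 regulatory genes or 22.7% (10.1% to 43.4%) against 10.2%. None of these values takes account of the CpG content of the promoters, which is given below.

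The shares of the members were set beside those of other large complexes. Of 87 cytosolic ribosomal protein genes, 81 or 93.1% (85.8% to 96.8%) had a Bio-Myc peak and 79 or 90.8% (82.9% to 95.3%) a Max peak. These leave out genes whose symbol names them as copies (-ps), which was done after the values were seen. With the copies, which annotation calls protein-coding, 82 of 140 or 58.6% (50.3% to 66.4%) had a Bio-Myc peak and 80 or 57.1% (48.9% to 65.0%) a Max peak. All 8 genes of the cytosolic chaperonin, which folds actin and tubulin, had both peaks. The intervals of the proteasome genes, with upper ends of 47.8% and 65.2%, did not reach those of the chaperonin genes, with lower ends of 67.6%, or of the 87 ribosomal protein genes, but for Max they overlapped that of all 140. The median Bio-Myc score was 134 at the 17 proteasome genes, 314 at the 81 ribosomal protein genes and 363 at the 8 chaperonin genes.

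**Figure D3:**
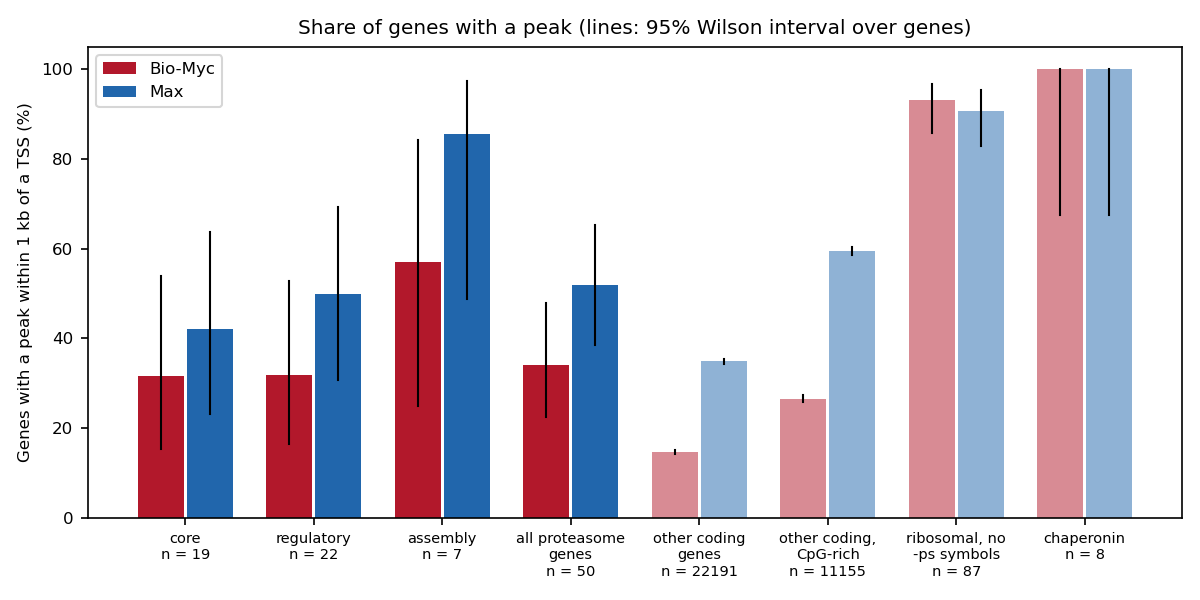
Share of genes with a Bio-Myc peak (red) or a Max peak (blue) within 1 kb of a TSS, in percent, by group of genes with its number; lines are 95% Wilson intervals over genes, and paler bars are genes outside the proteasome. The 50 proteasome genes reach 34% and 52%, above the other protein-coding genes at 14.6% and 34.9% and below the ribosomal protein genes at 93.1% and 90.8%.

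Proteasome promoters were also rich in CpG, which goes along with peaks in both lists. A CpG-rich promoter (observed over expected CpG of at least 0.6 within 500 bp of a TSS) was found at 41 of 50 members, or 82% (69.2% to 90.2%), against 50.3% of the others. Among CpG-rich promoters alone, 15 of 41 members or 36.6% (23.6% to 51.9%) had a Bio-Myc peak, against 26.5% of the 11155 others, and 23 or 56.1% (41.0% to 70.1%) a Max peak, against 59.5%. Both intervals include the value of the other genes, so among CpG-rich promoters the members could not be told apart from other genes in either count at this number. Over all genes of each role group, the intervals given above also include the 26.5% and 59.5%. For the assembly factors, of which 5 of 7 had a CpG-rich promoter, they run from 25.0% to 84.2% (Bio-Myc) and from 48.7% to 97.4% (Max). A Bio-Myc peak without a Max peak was found at 4 of the 41, Psmb1, Psmb4, Psmc1 and Psmd8, or 9.76% (3.86% to 22.5%), against 3.18%. At the outermost TSS, the median ratio of observed to expected CpG was 0.787 in the members with a Bio-Myc peak, 0.690 in those with a Max peak alone and 0.659 in those with neither. The last value compares with 0.318 in the 14015 other genes with neither peak. Proteasome genes without a peak, such as Psmb5 and Psmb7, thus had more CpG than most genes without one.

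Of the members with a Max peak, 13 of 26 or 50% (32.1% to 67.9%) also had a Bio-Myc peak, against 36.3% of the 7738 others. Of those with a Bio-Myc peak, 13 of 17 or 76.5% (52.7% to 90.4%) had a Max peak, against 86.5%. Each interval includes the value of the other genes. The Max peaks of members with a Bio-Myc peak had a median score of 247, and those without had 138. The same medians were 283 and 161 in other genes. The ranges in the members overlapped widely, from 120 (Psmd11) to 995 (Psme3) with a Bio-Myc peak and from 82.5 (Psmf1) to 679 (Psmd12) without one.

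The median Bio-Myc score was 134 at the 17 members with a peak, against 143 at the 3248 other genes with one. The shares below are over all genes, with or without a peak, so they combine how many genes had one with its score. Scores from 110 to below 150 were found at 8 of 50 members, or 16% (8.34% to 28.5%), against 3.36% of other genes, and scores from 80 to below 110 at 5, or 10% (4.35% to 21.4%), against 4.41%. Scores of at least 150 were found at 4, Psme3, Psmc5, Psmg3 and Psmb4, or 8% (3.15% to 18.8%), against 6.87%. Only the interval of the class from 110 to below 150 thus lay clear of the other genes, those of the classes from 80 to below 110 and of at least 150 included their values, although Psmg2 and Psmc2 missed the limit of 150 narrowly, at 149.55 and 149.18. For Max, only the interval of the class of at least 150 lay clear of the other genes. A Max score of at least 150 was found at 18 members, or 36% (24.1% to 49.9%), against 22.7%. A Max score from 110 to below 150 was found at 4 members, or 8% (3.15% to 18.8%), against 6.18%. Max scores from 80 to below 110 were found at 4 members as well. The intervals of both lower classes include the values of the other genes. The Max shares likewise combine how many genes had a peak with its score. The median Max score of members with a peak was 186, below that of other genes with such a peak. The share at 150 or more thus does not show higher Max scores.

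The peaks lay close to the TSS. All 26 Max peaks and 16 of 17 Bio-Myc peaks of members covered an annotated TSS, against 86.1% and 88.9% of such peaks at other genes. The intervals of the members were 87.1% to 100% and 73.0% to 99.0%, and the second includes the value of the other genes. More than 1 TSS was annotated at 74% of members against 56.3% of other genes, and the part of this in the shares was not tested. The centres of the Bio-Myc and the Max peak of a gene were a median of 69 bp apart in the 13 members with both, from 19 bp at Psmg1 to 458 bp at Psmb10, and 110 bp apart in other genes. At 11 of 50 members or 22% (12.8% to 35.2%), the TSS of another protein-coding gene lay within 1 kb. The interval includes the 13.3% of other genes. Among genes with a Bio-Myc peak, such a neighbour was found at 29.4% (13.3% to 53.1%) of members, against 29.0% of others. Of the Bio-Myc peaks of members, 5 of 17 covered such a TSS, at Psma4, Psma7, Psmc2, Psmc5 and Psmg2.

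**Figure D4:**
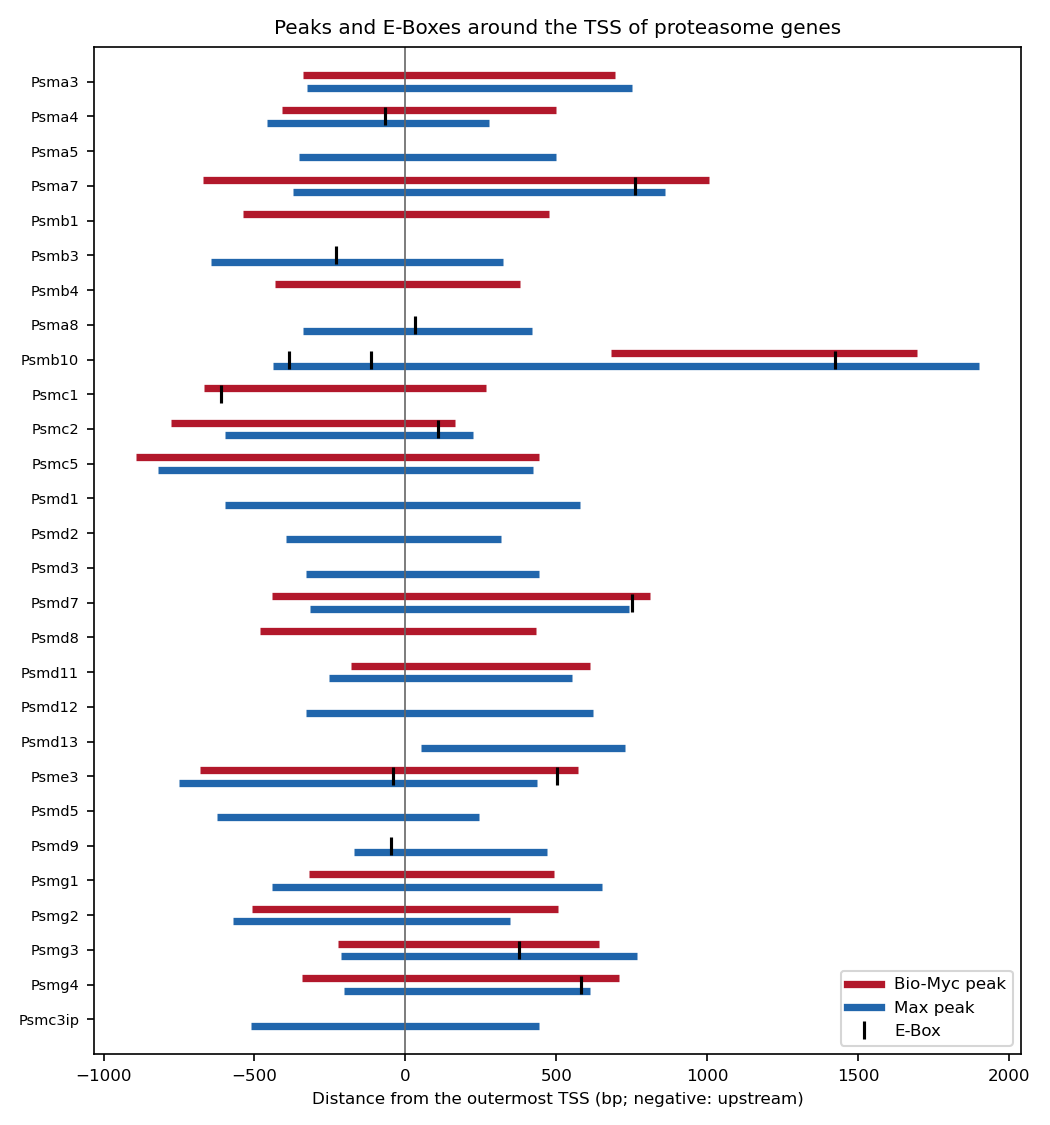
Bio-Myc peaks (red), Max peaks (blue) and E-Boxes under them (black ticks) of the proteasome genes with a peak, by distance in bp from the outermost TSS, negative values being upstream; Psma6 and Psmf1, whose Max peaks lie at internal starts, are left out. Nearly all peaks span the TSS, the Bio-Myc peak of Psmb10 and the Max peak of Psmd13 start downstream of the outermost TSS, and the E-Boxes lie at varied distances from it.

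E-Boxes were found under 9 of the 17 Bio-Myc peaks, or 52.9% (31.0% to 73.8%), against 49.1% at other genes, and under 10 of the 26 Max peaks, or 38.5% (22.4% to 57.5%), against 37.4%. They were spread over the peaks. Only the site at Psme3 lay within 100 bp of the centre of a Bio-Myc peak, and the median distance of the 10 E-Boxes under Bio-Myc peaks from the centre was 406 bp. In the central 200 bp, 1 of 17 members or 5.88% had an E-Box, against 17.3% of other genes. The interval of this share includes the value of the other genes, so a lack of central E-Boxes cannot be read from it. Under Max peaks, the E-Boxes of Psma8, Psma4, Psmb3 and Psmg3 lay within 100 bp of the centre, at 9 bp, 22 bp, 67 bp and 98 bp. An E-Box under both peaks was found at 7 members, the 6 printed above and Psmb10. Of the members with a Bio-Myc peak, no E-Box lay under any peak of Psma3, Psmb1, Psmb4, Psmc5, Psmd8, Psmd11, Psmg1 and Psmg2. Among them, Psmc5 and Psmb4 had Bio-Myc scores of 245.21 and 182.33. Of the members with a Max peak alone, none lay under those of Psma5, Psma6, Psmd1, Psmd2, Psmd3, Psmd5, Psmd12, Psmd13, Psmf1 and Psmc3ip.

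The promoters, taken from 250 bp upstream to 50 bp downstream of the outermost TSS, were searched on both strands for 4 motifs, each counted on its own where they overlap. The E-Box CACGTG was present at 7 members, or 14% (6.95% to 26.2%), against 7.77% of the other promoters. CACGCG, a variant of the E-Box, was present at 14%, against 11.7%. CCAAT, the letters of the CCAAT box, was present at 40%, against 38.0%. TGACNNNGC, which spells the core of the antioxidant response element that Nfe2l1 and Nfe2l2 bind, was present at 7 members, or 14%, against 12.5%. These 7 were Psmb2, Psmb5, Psmb6, Psmc6, Psmd7, Psmd12 and Psmd9, of which only Psmd7 had a Bio-Myc peak and 4 had no peak in either list. Over all 50 members, the intervals of all 4 motifs include the value of the other genes, and a match is a description of the letters only. The 150 bp upstream of the outermost TSS are given for 4 genes, chosen after the values were seen, as promoters without a peak that hold TGACNNNGC (Psmb5 and Psmb6, capitals) and promoters under a Bio-Myc peak that hold none of the 4 motifs (Psmb4 and Psmg1).
Psmb5 (chr14:55236852-55237001, - strand): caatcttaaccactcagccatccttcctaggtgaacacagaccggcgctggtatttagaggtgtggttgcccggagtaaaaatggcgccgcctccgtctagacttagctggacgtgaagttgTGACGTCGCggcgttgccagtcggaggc
Psmb6 (chr11:70338719-70338868, + strand): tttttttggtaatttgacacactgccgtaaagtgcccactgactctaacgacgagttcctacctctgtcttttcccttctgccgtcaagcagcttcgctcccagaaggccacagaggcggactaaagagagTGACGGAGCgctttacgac
Psmb4 (chr3:94690884-94691033, - strand): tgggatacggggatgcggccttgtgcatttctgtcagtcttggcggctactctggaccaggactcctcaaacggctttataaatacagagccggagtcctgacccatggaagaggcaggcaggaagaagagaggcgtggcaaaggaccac
Psmg1 (chr16:96212568-96212717, - strand): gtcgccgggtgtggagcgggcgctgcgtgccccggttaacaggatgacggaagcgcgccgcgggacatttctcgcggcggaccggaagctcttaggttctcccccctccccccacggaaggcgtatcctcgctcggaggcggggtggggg

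Genes that work with the proteasome but lie outside the naming rule were taken from a list of 29, of which 28 were annotated. A Bio-Myc peak was present at 15 of them, or 53.6% (35.8% to 70.5%), against 14.7% of all protein-coding genes, and a Max peak at 19, or 67.9% (49.3% to 82.1%), against 34.9%. Both were present at 12, or 42.9% (26.5% to 60.9%), against 12.7%. The highest Bio-Myc score was that of Nfe2l1, the transcription factor that raises proteasome genes when the proteasome is inhibited, at 321.10. Vcp, an ATPase that extracts ubiquitinated proteins, and Rad23b, a ubiquitin shuttle, followed at 240.49 and 240.23. The ubiquitin genes Rps27a and Ubb had scores of 167.51 and 145.38, and Nfe2l2 151.83. The proteasome-associated deubiquitinases Usp14 and Uchl5 had 159.64 and 125.80. Txnl1, Ube3c, Uba6, Uba1 and Ubqln4 had 142.14, 127.69, 124.14, 121.74 and 97.05. Of the 15, Usp14, Ubb and Uba6 had no Max peak. Pomp, the chaperone of the beta ring, and Adrm1, a ubiquitin receptor, had Max peaks alone, with scores of 202.17 and 113.78.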

How the data were processed

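The authors mapped reads to mm9 with Bowtie 0.12.7, called peaks with MACS 1.4.1 against the mock or IgG ChIP, and deposited 1 list per protein with a score per peak, 10 times the negative log10 p-value, at a limit of 1e-08. A fixed limit makes the number of peaks depend on depth, which the lists do not hold. The highest Max score, 3100.00, was shared by 15 peaks and may be a ceiling.

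Genes were the protein-coding records of GENCODE M1, on the same assembly as mm9, with records of one symbol, chromosome and strand pooled (22380 records, 22241 genes; 52 and 50 for the members). Windows, scores, motifs and CpG ratios were computed with Python 3.11.15, numpy 2.4.6, pysam 0.24.0 and samtools 1.23.1, and intervals with the 95% Wilson method. The overlap of peaks and genes was tested on simulated data. No test was run, since each list is 1 library. By rule, every member was named, with positions for those with a Bio-Myc peak, and sequences were shown for E-Boxes under both peaks, outside chromosomes 8 and 18. The members, role groups and lists were chosen with earlier results of these data known. The alternatives were other windows, TSSs, score limits, chromosomes, role groups and E-Box rules. Counting records separately and leaving out genes with a close neighbour were added after seeing the data. The values of some genes with a Bio-Myc peak outside the naming rule are not reported here.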

Additional observations from a re-analysis of the deposited data

How the results depend on the processing

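Of the alternative settings, 92 values stayed within 1.5 times the count, or at the medians of 134 (Bio-Myc score) and 186 (Max score), and 15 moved. Counts were compared even where the number of genes changed, so a share could change while its count stayed. With groups by symbol letter, the assembly group had a Bio-Myc peak at 4 of 4 genes (100%), instead of 4 of 7 (57.1%). At scores of at least 150, a Bio-Myc peak remained at 4 members (8%, against 6.87% of other genes) and both peaks at 3 (6%, against 5.87%). By role, a Bio-Myc peak remained at 1 core (5.26%), 2 regulatory (9.09%) and 1 assembly gene (14.3%), against the same 6.87%. A Max peak remained at 6 regulatory genes (27.3%, against 22.7%). With as many of the highest-scoring Max peaks as there are Bio-Myc peaks, a Max peak was found at 11 members (22%, against 15.5%). By role, these included 2 core (10.5%) and 5 regulatory genes (22.7%), against the same 15.5%. Without genes that have another protein-coding TSS within 1 kb, an alternative chosen after seeing the data, 8 of 39 members had both peaks (20.5%, against 10.1%). An E-Box in the central 500 bp was found at 4 members with a Bio-Myc peak (23.5%, against 34.2%) and 6 with a Max peak (23.1%, against 28.2%). In the central 200 bp, it was found at 1 (5.88%, against 17.3%) and 4 (15.4%, against 16.9%). The intervals of these central shares all include the values of the other genes. With CACGCG added, 16 Max peaks of members held a motif (61.5%, against 68.8%). No paired analysis was possible because each protein had 1 library. The lists cannot show peaks with a p-value above 1e-08, a gene without a peak may still be bound, and unique mapping and wide peaks limit what can be placed at one gene.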
